A study of Mus musculus with 21 samples.

Results

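Myh6 and Myh7 are the neighbouring mouse genes of the alpha and beta cardiac myosin heavy chains, and both were measured here in all reads and in reads with a T>C conversion, in hearts with intact and with floxed Lmna. They were found by position, as the intervals of the deposited table inside 2 windows on the minus strand of chromosome 14 of mm39, from 55179000 to 55205000 for Myh6 and from 55207500 to 55232500 for Myh7. They are 2 genes of the 46278 loci into which the table's intervals were joined. The Myh6 window held 3 overlapping intervals with the same 2294006 reads over all libraries, and the longest stands for the gene: transcript ENSMUST00000081857.14, chr14:55179378-55179437, 60 bases with 12 T positions. The Myh7 window held 2 overlapping intervals, and the one with more reads was kept: transcript ENSMUST00000102803.11, chr14:55208141-55208249, 109 bases with 24 T positions and 179859 reads. The other Myh7 interval, chr14:55208224-55208249, lies inside it and had 110081 reads. Both kept intervals lie at the 3′ end of their gene, where the library kit primes.

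Myosin heavy chain is the motor protein of the thick filament in heart muscle. The alpha chain of Myh6 hydrolyses ATP faster and is the main form of the adult mouse ventricle, while the slower beta chain of Myh7 is the main form of the fetal mouse ventricle. Thyroid hormone receptor acts on both genes in opposite directions, and a rise of Myh7 against Myh6 is widely used as a sign of load or disease in rodent hearts.

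The upstream windows of both genes are shown because the genes lie side by side on 1 strand. Any link between these sequences and the read counts was not tested. Each is the 250 bases before the RefSeq transcription start on GRCm38.p6, at chr14:54966608-54966857 for Myh6 and chr14:54994627-54994876 for Myh7, minus strand, printed 5′ to 3′. Of the 2 starts listed for Myh7 the upstream one was taken. Capitals mark a match to the muscle motif M-CAT (CATTCC), read here on the opposite strand.
Myh6: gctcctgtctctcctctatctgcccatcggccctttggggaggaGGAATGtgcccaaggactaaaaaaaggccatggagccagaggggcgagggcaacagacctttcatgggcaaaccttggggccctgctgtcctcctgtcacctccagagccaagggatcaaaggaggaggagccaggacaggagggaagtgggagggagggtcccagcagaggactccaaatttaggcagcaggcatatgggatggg
Myh7: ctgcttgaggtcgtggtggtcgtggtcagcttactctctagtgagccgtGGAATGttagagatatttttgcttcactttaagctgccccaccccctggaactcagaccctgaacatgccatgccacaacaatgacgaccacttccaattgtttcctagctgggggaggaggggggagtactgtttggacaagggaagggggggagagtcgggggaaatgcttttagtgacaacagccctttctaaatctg

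Over both strands together each window held 1 match, 206 to 201 bases before the start in Myh6 and 201 to 196 bases before it in Myh7. The motifs were chosen with the sequences at hand, so these matches are a description and not a test. The same letters occur in 12.6% of the 32851 windows of that length in the RefSeq table. The letters TATAAA, found in 12.4% of the windows, and AGGTCA, a thyroid and retinoid receptor half-site found in 4607 windows, were in neither gene's window on either strand. Only exact matches to these letters were searched. Near matches, including those to a receptor half-site, were not counted, so the printed windows may hold them. None of the 3 motifs overlapped another in these 2 windows.

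The hearts came from a SLAM-IT-seq study of lamin cardiomyopathy mice, in which 4-thiouracil enters new RNA mainly where the enzyme Uprt is made and is later read as a T>C conversion. There were 8 mice of genotype Lmna +/+ with Myh6MCM Tg/0 and Uprt Tg/0 (4 females, 4 males), and 6 of Lmna F/F with the same 2 transgenes (4 females, 2 males). Without the Uprt transgene there were 3 mice of Lmna +/+ with Myh6MCM Tg/0, all male, and 4 of Lmna F/F with Myh6MCM Tg/0 (2 females, 2 males). Every mouse, controls included, carried Myh6MCM, a tamoxifen-activated Cre recombinase under the promoter of Myh6 itself, and had been given 100 µL of 4 mg/mL tamoxifen on each of 4 days at 6 to 8 weeks of age. 4-Thiouracil followed 2 weeks later at 10 mg per g body weight, and the heart was taken 6 h after that. RNA was taken from the left ventricular free wall, 1 library per mouse, so p-values here measure the spread between mice. No mouse was without Cre, tamoxifen or 4-thiouracil, F is the floxed allele, and the labels do not say which promoter drives Uprt. The level of Lmna, whose product lamin A/C lines the nuclear envelope, was not analysed here, since no table used names its locus. In such bulk tissue, fewer cardiomyocytes and less myosin RNA per cardiomyocyte cannot be told apart.

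Libraries held 25947355 to 50951634 reads on loci, of which 3.08% to 5.92% carried a T>C conversion, and all came from 1 sequencing pool. Myh6 ranked 18 to 45 among the loci by reads and Myh7 ranked 242 to 1081, so both labelled genes were abundant in every heart. Lmna F/F no Uprt replicates 1 and 2 stood apart from the other libraries, with Myh6 at rank 45 and 37 and Myh7 at rank 655 and 1081. Replicate numbers only name mice, in the order of their sample accessions, since the labels carry none. Replicates 1 and 2 of Lmna F/F no Uprt were picked after the values were seen, by their low levels of these 2 genes. Leaving them out therefore shrinks the Lmna difference without Uprt and the interaction by the choice itself, and is no independent check. The Lmna difference without Uprt, the interaction and the effect of Uprt are also given without this pair for both genes. The Lmna difference with Uprt is given without it for Myh6 only.

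In Lmna +/+ hearts with Uprt, the lowest, median and highest levels of Myh6 were 2669.9, 3012 and 3952 reads per 1e6 reads (CPM), with library sizes scaled by the TMM method (n = 8). In Lmna F/F hearts with Uprt they were 2191, 2653 and 3074 CPM (n = 6). The 2 groups overlapped, and 3 of the 6 Lmna F/F hearts lay below every Lmna +/+ heart. Without Uprt, the 3 Lmna +/+ hearts had 3336, 4256 and 3551 CPM, and the 4 Lmna F/F hearts had 1151, 1284, 3060.2 and 2594 CPM. These groups did not overlap, and the 2 libraries that stood apart held the lowest Myh6 levels of all 21. How often groups of 3 and 4 mice separate so among all loci was not counted.

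Myh7 was the rarer of the 2 transcripts by reads in every library. In Lmna +/+ hearts with Uprt its lowest, median and highest levels were 179, 236 and 331 CPM (n = 8), and in Lmna F/F hearts with Uprt they were 175, 192 and 278 CPM (n = 6). The ranges of these 2 groups overlapped for most of their length. Without Uprt, the 3 Lmna +/+ hearts had 363, 211 and 240.3 CPM, and the 4 Lmna F/F hearts had 128, 78.3, 228 and 165 CPM. Here the groups overlapped through Lmna F/F replicate 3, while replicates 1 and 2 were the 2 lowest of all libraries. Because the kit reads 1 stretch per transcript end, these CPM values compare reads of 2 intervals of unlike length and not protein or whole transcripts.

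**Figure D1:**
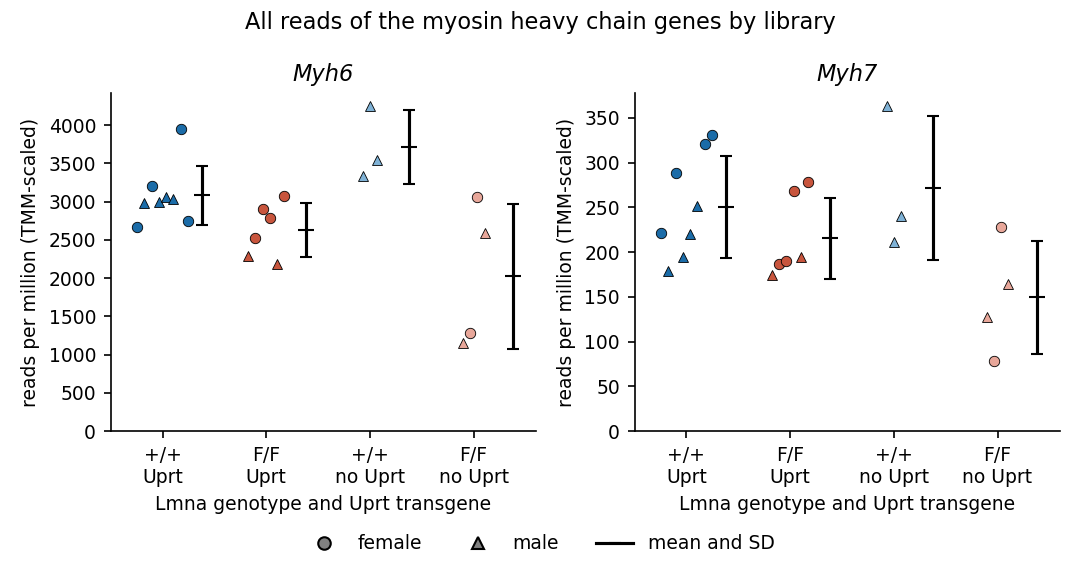
Level of Myh6 (left) and Myh7 (right) in each library, in TMM-scaled CPM, by Lmna genotype and Uprt transgene; circles are females, triangles are males, and the bar beside each group is its mean and SD (n = 8, 6, 3 and 4). The 2 lowest libraries of both panels, at 1151 and 1284 CPM for Myh6 and 128 and 78.3 CPM for Myh7, are Lmna F/F no Uprt replicates 1 and 2.

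The comparison of Lmna genotypes asked whether myosin heavy chain RNA differed 2 weeks after tamoxifen. With Uprt, neither gene passed the test. Myh6 averaged 2627 ± 353 CPM (SD, n = 6) in Lmna F/F against 3081 ± 391 CPM (SD, n = 8) in Lmna +/+, a log2 difference of -0.27 ± 0.16 (SE, edgeR's quasi-likelihood test, adjusted p = 0.403). Myh7 averaged 216 ± 45.4 CPM (SD, n = 6) against 251 ± 57.3 CPM (SD, n = 8), a log2 difference of -0.26 ± 0.18 (SE, edgeR adjusted p = 0.460). In the same fit 4.39% of the 20523 loci tested were called, and 0.848% were called lower. These are 727 loci higher and 174 lower, against 1419 higher and 25 lower with library size alone in place of TMM and 983 higher and 397 lower by DESeq2. With the 2 libraries that stood apart omitted from the fit there were 956 higher and 566 lower, and Myh6 was at -0.27 (edgeR adjusted p = 0.0616).

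Without Uprt both genes fell in Lmna F/F hearts. Myh6 averaged 2022 ± 950.2 CPM (SD, n = 4) against 3714 ± 481 CPM (SD, n = 3), and it fell by 0.97 ± 0.24 on the log2 scale, to 0.510 of the Lmna +/+ level (SE, edgeR adjusted p = 0.0118). Myh7 averaged 149.7 ± 63.0 CPM (SD, n = 4) against 271 ± 80.6 CPM (SD, n = 3), and it fell by 1.02 ± 0.26, to 0.494 of the Lmna +/+ level (SE, edgeR adjusted p = 0.0150). Of all loci tested in this comparison 8.91% were called and 3.49% were called lower, which are 1112 loci higher and 716 lower. With library size alone in place of TMM 1528 were higher and 319 lower. The 3 Lmna +/+ mice of this comparison were male, and the fit carries a sex term estimated from the 3 groups that held both sexes.

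The call of that fall depended on which libraries entered the fit. With only the 7 mice without Uprt in it, the log2 difference was -0.99 for Myh6 (edgeR adjusted p = 0.286) and -0.89 for Myh7 (edgeR adjusted p = 0.323), so neither gene was called. That fit called 5 loci higher and 0 lower by edgeR, of 18703 tested, with an unadjusted p under 0.05 at 3040 of them, and DESeq2 was not run on it. With replicates 1 and 2 of Lmna F/F no Uprt both omitted, the log2 difference was -0.48 for Myh6 (edgeR adjusted p = 0.197) and -0.69 for Myh7 (edgeR adjusted p = 0.221), and over all loci 122 were called higher and 22 lower. That pair was picked for its low levels of these genes, so a smaller difference follows from the choice. Leaving out replicate 1 alone ended both calls, at -0.74 for Myh6 (edgeR adjusted p = 0.0726) and -0.99 for Myh7 (edgeR adjusted p = 0.0650). Leaving out Lmna +/+ no Uprt replicate 2 ended the call of Myh6, at -0.86 (edgeR adjusted p = 0.0592), and leaving out Lmna +/+ no Uprt replicate 1 ended that of Myh7, at -0.75 (edgeR adjusted p = 0.116). The difference stayed below 0 for both genes in each of these fits.

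**Figure D2:**
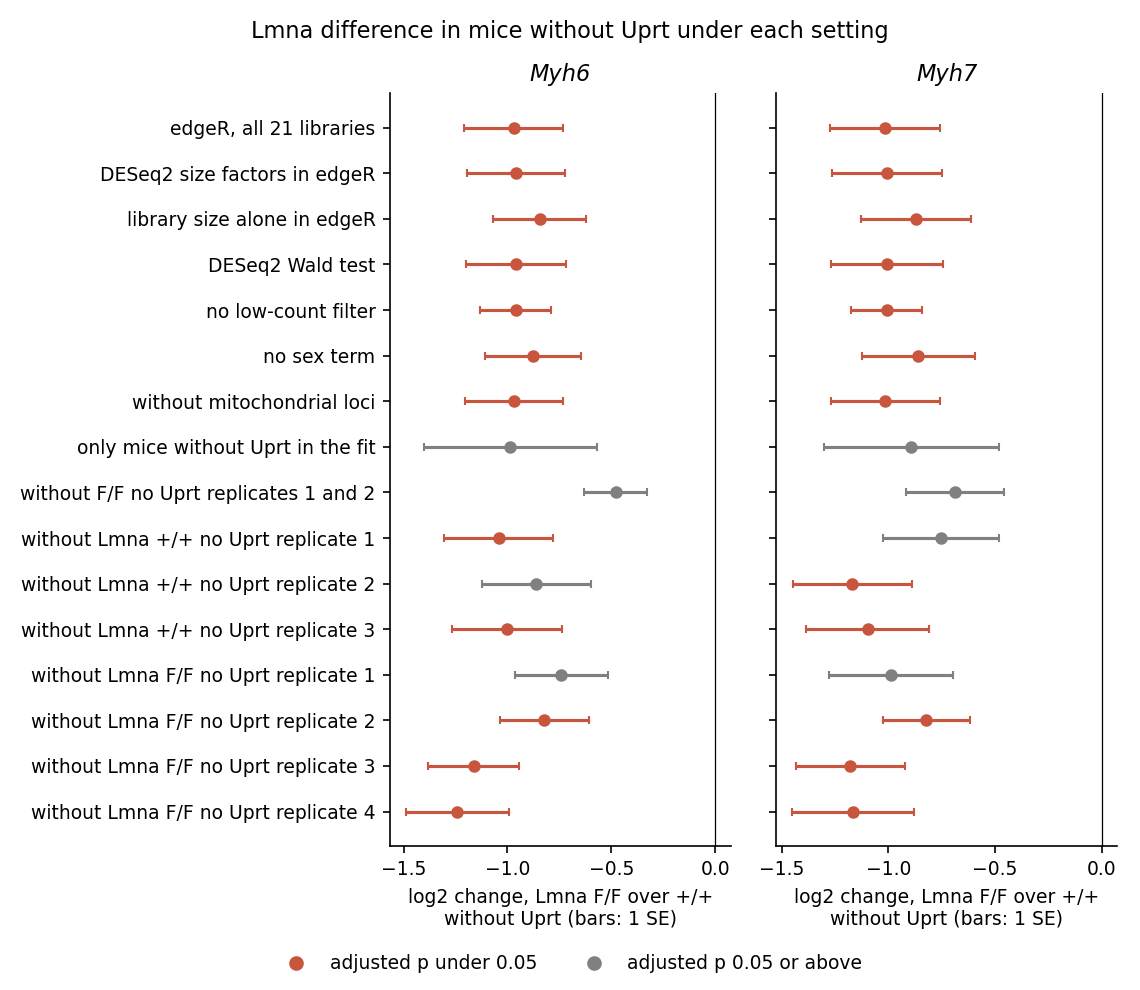
Log2 change of Myh6 (left) and Myh7 (right) in Lmna F/F over Lmna +/+ hearts without Uprt under each setting of the fit; points are estimates, bars are 1 SE, and red points have an adjusted p under 0.05. All points lie below 0, and the smallest change is that without Lmna F/F replicates 1 and 2, at -0.48 for Myh6 and -0.69 for Myh7.

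Whether the Lmna difference itself differed between mice with and without Uprt was tested directly. The interaction was 0.70 ± 0.28 on the log2 scale for Myh6 (SE, edgeR adjusted p = 0.542) and 0.75 ± 0.31 for Myh7 (SE, edgeR adjusted p = 0.545). At an adjusted p under 0.05 edgeR called 0 of the 20523 loci and DESeq2 called 5. Before adjustment 1743 loci had an edgeR p under 0.05. With the 2 libraries that stood apart left out the interaction was 0.21 for Myh6 and 0.40 for Myh7 (edgeR adjusted p = 0.971 for both).

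The transgene was not accompanied by a called change in total myosin reads. The log2 difference with Uprt against none, over both Lmna genotypes, was -0.0068 ± 0.15 for Myh6 (SE, edgeR adjusted p = 0.992), and -0.25 with the 2 libraries that stood apart omitted (edgeR adjusted p = 0.285). For Myh7 it was 0.082 ± 0.16 (SE, edgeR adjusted p = 0.905), -0.027 with library size alone in place of TMM and -0.14 with those 2 libraries omitted (edgeR adjusted p = 0.763). In this comparison 0.122% of loci were called. The sex term, examined after the values were seen, was -0.18 ± 0.14 in males against females for Myh6 (SE, edgeR adjusted p = 0.687) and -0.33 ± 0.16 for Myh7 (SE, edgeR adjusted p = 0.441), with 0.132% of loci called.

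The 2 genes also differed in the share of their reads that carried a T>C conversion. In Lmna +/+ hearts with Uprt the lowest, median and highest T>C shares of Myh6 reads were 0.800%, 1.13% and 1.48% (n = 8), and in Lmna F/F hearts with Uprt they were 1.07%, 1.21% and 1.79% (n = 6). Without Uprt the share was 0.336%, 0.443% and 0.471% in the 3 Lmna +/+ hearts and 0.360%, 0.511%, 0.419% and 0.389% in the 4 Lmna F/F hearts. Every heart with Uprt lay above every heart without it, and the 2 Lmna genotypes overlapped in both settings. How many of all loci separate the transgene groups in this way was not counted. In the test of T>C odds with Uprt against none, 59.2% of 11938 loci were called, so such separation may be common.

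For Myh7 the lowest, median and highest T>C shares with Uprt were 4.66%, 8.49% and 13.7% in Lmna +/+ hearts (n = 8) and 7.42%, 8.76% and 11.2% in Lmna F/F hearts (n = 6). Without Uprt they were 1.03%, 1.88% and 3.10% in the 3 Lmna +/+ hearts and 0.880%, 1.02%, 1.94% and 1.60% in the 4 Lmna F/F hearts. The transgene groups again did not overlap, and this too was not counted over all loci. The share with the fewest reads behind it, 32 T>C reads of 3137 in Lmna F/F no Uprt replicate 2, has a 95% Wilson interval of 0.724% to 1.44%. This interval covers counting error only and takes the reads as independent. No molecular identifiers are recorded, so reads copied from the same molecule were not set apart.

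**Figure D3:**
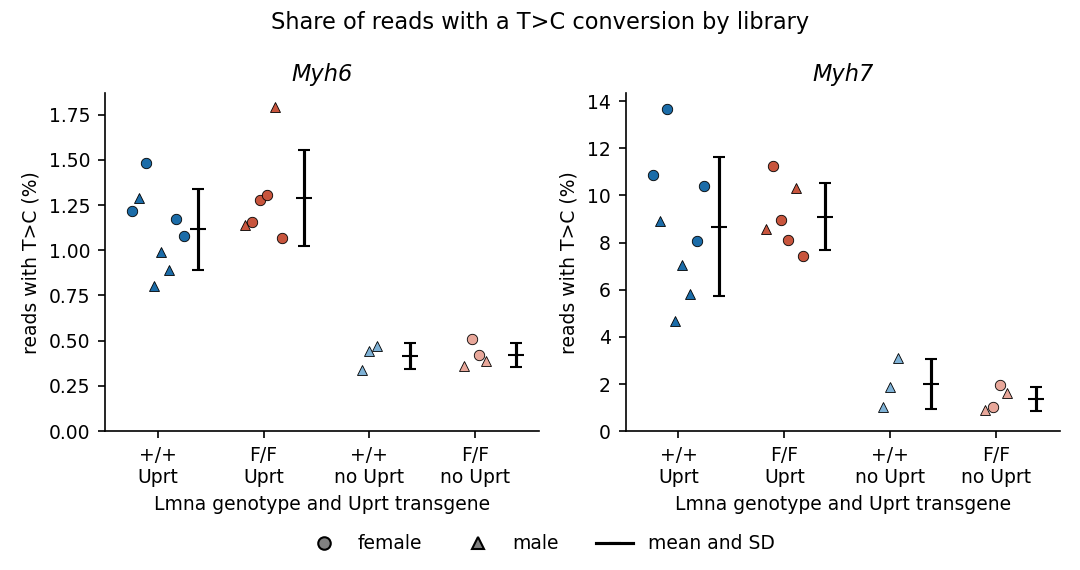
Percent of the reads of Myh6 (left) and Myh7 (right) that carry a T>C conversion in each library, by Lmna genotype and Uprt transgene, on axes of different height; circles are females, triangles are males, and bars are the mean and SD (n = 8, 6, 3 and 4). Libraries with Uprt start at 0.800% for Myh6 and 4.66% for Myh7, above the highest library without Uprt at 0.511% and 3.10%.

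With Uprt the odds of a T>C read rose for both genes. The log2 odds ratio was 1.47 ± 0.12 for Myh6 (SE, edgeR adjusted p = 6.5e-09) and 2.45 ± 0.23 for Myh7 (SE, edgeR adjusted p = 1.9e-08), in a comparison in which 59.2% of the 11938 loci tested were called. The odds were 2.77 times as high for Myh6 and 5.45 times as high for Myh7. With the 2 libraries that stood apart omitted the log2 odds ratio was 1.51 for Myh6 and 2.23 for Myh7. The median log2 odds ratio of all loci tested was 1.15, and 63.1% of loci had a smaller one than Myh6 and 91.2% a smaller one than Myh7. These loci had passed a filter on T>C reads, which can be met through the mice with Uprt alone.

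In its T>C share Myh6 was near the bottom of the loci tested, all of which had passed a filter on T>C reads. That filter removes rarely read loci of low share, so the places given here hold only among the loci kept. Pooled over the 14 mice with Uprt, 1.18% of Myh6 reads were converted, and only 1.32% of the 11938 loci had a lower share. The pooled share of Myh7 was 8.94%, above 60.4% of loci, and the median locus was at 7.53%. These shares are counted per read, and the T bases covered per read were not computed for the other loci. The places among all loci therefore do not compare labelling per base. Without Uprt the pooled shares were 0.420% for Myh6 and 1.76% for Myh7, against a median of 3.18%. In that background 0.544% of loci had a lower share than Myh6.

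The share of Myh7 exceeded that of Myh6 in all 14 libraries with Uprt, by 7.67 percentage points on average (two-sided exact permutation p = 0.000122 over the signs, the smallest that 14 pairs can give, adjusted p = 0.00061 over 15 tests). Without Uprt the share of Myh7 was also the higher in all 7 libraries, by 0.509 to 2.63 percentage points. The sign alone therefore does not separate label from background. The share is counted per read, and a read covered on average 13.4 T positions inside the Myh7 interval against 8.44 inside that of Myh6. T>C reads outnumbered the conversions inside the interval for both genes, with 1161 T>C reads and 905 conversions of Myh6 and 856 and 553 of Myh7 in Lmna +/+ Uprt replicate 1. Some T>C reads therefore carried their conversion outside the kept interval, and the T positions inside it do not by themselves set the share per read. Conversions inside the interval were also counted per 1000 covered T bases, which leaves out any that lie outside it.

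Per 1000 covered T bases, Myh6 had 1.04 ± 0.198 conversions in Lmna +/+ hearts with Uprt (SD, n = 8) against 0.420 ± 0.0737 without (SD, n = 3), with a two-sided exact permutation p of 0.0121. In Lmna F/F hearts it had 1.22 ± 0.261 (SD, n = 6) against 0.411 ± 0.0571 (SD, n = 4), exact permutation p = 0.00952. The rate of Myh6 was thus higher with Uprt in both Lmna genotypes, and so was that of Myh7. Myh7 had 4.40 ± 1.55 (SD, n = 8) against 0.990 ± 0.415 (SD, n = 3) in Lmna +/+ hearts, exact permutation p = 0.0121. In Lmna F/F hearts Myh7 had 4.50 ± 0.696 (SD, n = 6) against 0.680 ± 0.275 (SD, n = 4), exact permutation p = 0.00952. Each p is the smallest that its numbers of mice allow, each has an adjusted p of 0.0260 over 15 tests, and the groups overlapped in none of the 4 comparisons. These rates were not computed for the other loci, so how common such separation is was not measured.

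Above the background without Uprt, Myh6 thus gained 0.617 conversions per 1000 T in Lmna +/+ and 0.806 in Lmna F/F hearts, and Myh7 gained 3.41 and 3.82. The ratio of the 2 genes' rates within a library was also set against the transgene, a comparison added after the values were seen. The log2 ratio of Myh7 to Myh6 conversions per covered T averaged 1.97 with Uprt (SD 0.276, n = 14) and 0.86 without it (SD 0.585, n = 7), a difference of 1.11 (exact permutation p = 1.72e-05, the smallest possible, adjusted p = 0.000258). The libraries with and without Uprt did not overlap in this ratio, and with the 2 libraries that stood apart omitted the difference was 0.80 (exact permutation p = 0.000172). For the ratio of T>C shares the difference was 1.02 (exact permutation p = 8.6e-05, adjusted p = 0.00061), with overlap, and with the 2 libraries that stood apart omitted it was 0.74 (exact permutation p = 0.00086).

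Labelled reads were also compared between Lmna genotypes, the comparison for which the labelling was made. With Uprt, T>C reads of Myh6 differed by -0.061 ± 0.14 on the log2 scale in Lmna F/F against Lmna +/+ (SE, edgeR adjusted p = 0.966), and the sign turned to 0.040 with library size alone. Those of Myh7 differed by -0.20 ± 0.17 (SE, edgeR adjusted p = 0.876), and 0.528% of the 9659 loci tested were called. Relative to total reads, the log2 odds of a T>C read differed by 0.20 ± 0.14 for Myh6 and 0.061 ± 0.20 for Myh7 (SE, edgeR adjusted p = 1.00 for both), with 0.0311% of loci called. In neither readout did a myosin gene pass the test with Uprt.

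Without Uprt, where T>C reads are the background of the method, the log2 difference in T>C reads was -1.11 ± 0.38 for Myh6 (SE, edgeR adjusted p = 0.468) and -1.39 ± 0.63 for Myh7 (SE, edgeR adjusted p = 0.596), with 0.0397% of 7552 loci called. With the 2 libraries that stood apart omitted it was -0.78 for Myh6 and -1.08 for Myh7 (edgeR adjusted p = 0.991 for both). The T>C reads of these 7 libraries were 177 to 794 for Myh6 and 32 to 354 for Myh7. The log2 odds of a T>C read differed by -0.14 ± 0.18 for Myh6 and -0.61 ± 0.51 for Myh7 (SE, edgeR adjusted p = 0.998 for both), and by -0.084 and -0.20 without those 2 libraries. For these odds edgeR made 0 calls over its 7552 loci, 229 of which had an unadjusted p under 0.05. No other tool was run on them.

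The ratio of Myh7 to Myh6 reads within a library, which no scaling of library size can move, was the last readout. In Lmna +/+ hearts with Uprt there were 5.99, 8.19 and 12.0 Myh7 reads per 100 Myh6 reads at the lowest, median and highest (n = 8). In Lmna F/F hearts with Uprt there were 6.55, 8.26 and 9.64 (n = 6). Without Uprt the ratio was 10.9, 4.96 and 6.77 in the 3 Lmna +/+ hearts and 11.1, 6.10, 7.45 and 6.35 in the 4 Lmna F/F hearts. All 4 groups overlapped, and Lmna F/F no Uprt replicates 1 and 2, lowest in the level of both genes, lay at opposite ends of their group in the ratio.

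The log2 ratio in Lmna F/F minus that in Lmna +/+ hearts with Uprt was 0.021, with a 95% interval of -0.28 to 0.32 (two-sided exact permutation p = 0.886, n = 6 and 8). Without Uprt it was 0.074, with a 95% interval of -1.07 to 1.22 (exact permutation p = 0.857, n = 4 and 3, where no p below 0.0571 is possible). Under its assumption of normal spread the first interval ends at 0.32, while the second still holds a change of 1 on the log2 scale. The sign of the first difference turned when any of 6 libraries was left out, within -0.038 to 0.11.

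Among T>C reads Myh7 took a larger part. With Uprt there were 37.9, 55.0 and 116 Myh7 T>C reads per 100 Myh6 T>C reads at the lowest, median and highest in Lmna +/+ hearts (n = 8), and 45.9, 58.7 and 72.3 in Lmna F/F hearts (n = 6). In 1 heart, Lmna +/+ Uprt replicate 8, Myh7 had more T>C reads than Myh6. Without Uprt the ratio was 33.3, 21.1 and 44.6 in the Lmna +/+ hearts and 27.1, 12.2, 34.4 and 26.1 in the Lmna F/F hearts. The log2 ratio with Uprt differed by -0.061 between Lmna genotypes, with a 95% interval of -0.53 to 0.41 (exact permutation p = 0.819, n = 6 and 8).

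**Figure D4:**
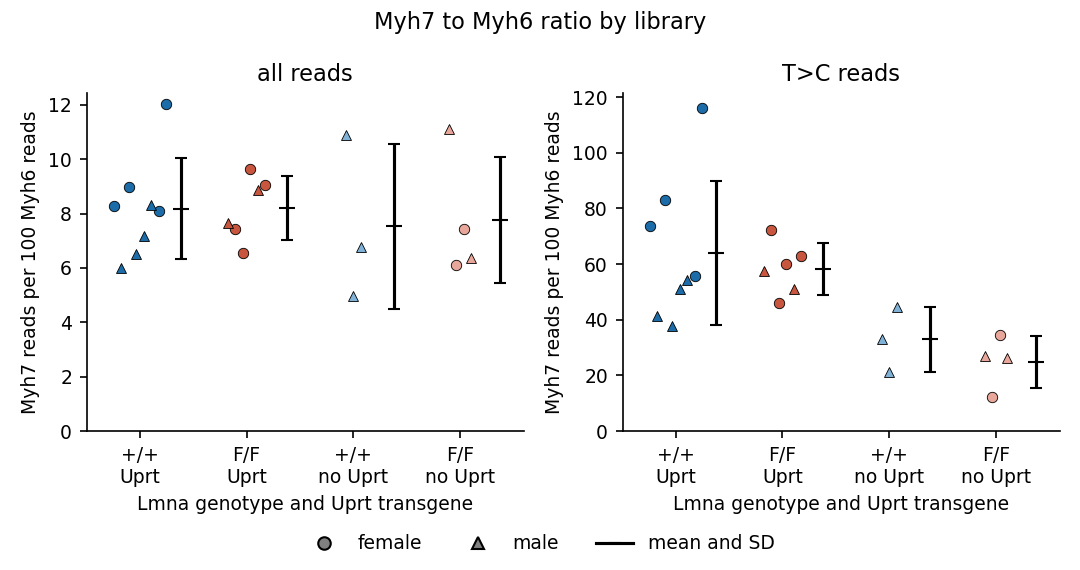
Myh7 reads per 100 Myh6 reads in each library, for all reads (left) and for T>C reads (right, on a taller axis), by Lmna genotype and Uprt transgene; circles are females, triangles are males, and bars are the mean and SD (n = 8, 6, 3 and 4). The all-reads ratio runs from 4.96 to 12.0 over the 4 groups, and the T>C ratio reaches 116 in Lmna +/+ Uprt replicate 8.

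Females and males were compared in the same ratio after the values were seen. Over all mice the log2 ratio of all reads was 0.14 higher in the 10 females than in the 11 males, with a 95% interval of -0.16 to 0.43 (permutation p = 0.347 over all arrangements). The difference was 0.41 in Lmna +/+ hearts with Uprt alone (exact permutation p = 0.0857) and -0.029 in Lmna F/F hearts with Uprt alone. In T>C reads of Lmna +/+ hearts with Uprt, the 4 females had 55.7 to 116 Myh7 reads per 100 Myh6 reads and the 4 males 37.9 to 54.3, which did not overlap. In Lmna F/F hearts with Uprt the 4 females had 45.9 to 72.3 and the 2 males 51.1 and 57.4, which did. These T>C ratios by sex were not tested. The sex term of the T>C odds over all mice was -0.14 ± 0.12 on the log2 scale in males against females for Myh6 (SE, edgeR adjusted p = 0.942). For Myh7 it was -0.40 ± 0.22 (SE, edgeR adjusted p = 0.880), and 0 of 11938 loci were called.

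How the 2 genes varied together was described between mice of 1 group. The Pearson correlation of their log2 CPM was 0.38 in the 8 Lmna +/+ hearts with Uprt (exact permutation p = 0.388, adjusted p = 0.529, Spearman rho 0.24, exact permutation p = 0.582) and turned to -0.24 without the 2 hearts farthest from the median of Myh6. In the 6 Lmna F/F hearts with Uprt it was 0.69 (exact permutation p = 0.154, adjusted p = 0.289, Spearman rho 0.54, exact permutation p = 0.297) and 0.55 without the 2 farthest. Over all 21 libraries, which share the group differences and the 2 libraries that stood apart, the correlation was 0.77, higher than that of Myh6 with 92.6% of 6352 loci of at least 10 CPM. The loci whose log2 CPM followed Myh6 most closely over the 21 libraries were chr17:71343269-71343518 with a correlation of 0.97 and chr7:79744598-79744951, also with 0.97. For Myh7 they were chr12:84420631-84424067 with 0.94 and chr7:19029720-19030085 with 0.90, and the files do not pair these 4 loci with gene names. These correlations were not computed without the 2 libraries that stood apart.

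Around both genes, within 250 kb, 28 loci lay on either strand outside the kept intervals and 15 of them had enough reads to be tested. With Uprt the lowest edgeR adjusted p of these 15 between Lmna genotypes was 0.107, where 4.39% of all loci were called. Without Uprt 1 was called higher and 2 were called lower, as against 8.91% of all loci called. One of the 2 lower lies on the plus strand within the Myh7 window, chr14:55211335-55211806, opposite to the strand of Myh7, and its log2 difference was -0.84 (edgeR adjusted p = 0.00972), beside -1.02 for Myh7. Whether reads of Myh7 contribute to it was not tested, and the neighbouring loci were not refitted without the 2 libraries that stood apart. The odds of a T>C read at chr14:55211335-55211806 also rose with Uprt, by 2.11 on the log2 scale, beside 2.45 for Myh7. Another plus-strand locus of the Myh7 window, chr14:55228217-55229058, rose by 3.50, more than Myh7 (edgeR adjusted p = 1.6e-05). Its log2 Lmna difference without Uprt was -0.79 (edgeR adjusted p = 0.0575). The 8 neighbouring loci tested for these odds had a median of 1.73, and 5 of them were called higher, where 59.2% of all loci were called.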

How the data were processed

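The members and lists were chosen with earlier results of these data known. The deposited values are counts per interval and library, per the file headers. They hold all reads, those with a T>C conversion, the multimapped ones, and covered T bases with their conversions, in the columns that SlamDunk writes. Coordinates are on mm39, as the submitters' processing notes name it. How reads were aligned, whether variants were filtered and how many conversions make a T>C read: not given in the sources used here. Multimapped reads were 0.0317% of Myh6 and 0.0612% of Myh7 reads, and 0 columns of other samples were present. Per the labels' protocols, iodoacetamide at 12 mM alkylated 1.5 µg of RNA, and stranded QuantSeq 3′ libraries were sequenced over 100 bases.

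Of 208307 intervals, overlapping ones of a strand were reduced to the most read and those that share a transcript were summed, which gave 46278 loci. All reads, T>C reads and T>C odds (converted against unconverted reads, with library effects) were tested over all loci with the quasi-likelihood test of edgeR (version 4.0.16, R 4.3.3), with group and sex as terms. Low loci were removed by filterByExpr (count of 10), which was applied to T>C reads in the fits of T>C reads and of T>C odds. Libraries were scaled by TMM, and a call is a Benjamini-Hochberg adjusted p under 0.05. T>C reads, and T>C odds between Lmna genotypes, were fitted in mice with and without Uprt separately. The SE is the log2 change over the root of the F statistic. DESeq2 1.42.0 was an alternative. Single values were tested by two-sided exact permutation in NumPy 2.4.6, where p is the smaller tail counted on both sides, adjusted over 15 tests.

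The text names Myh6 and Myh7 by their windows, plus by position the 2 loci per gene with the highest correlation of log2(CPM + 0.5) among loci of at least 10 CPM. Lists of sarcomere genes, regulators of the myosin genes and cell type markers were not run, since the reference table is of GRCm38.p6 and names no locus of mm39. The motifs were chosen with the sequences at hand.

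Fits were tested on simulated counts with 200 loci (191 and 184 for T>C reads) changed by 1 on the log2 scale. Between Lmna genotypes the all-reads test recovered 76.5% of the changed loci with Uprt (19996 loci tested) and 51.5% without (19956). The T>C reads test recovered 28.3% with Uprt (9208) and 0% without (6970), and the T>C odds test 26.5% with (9314) and 0% without (7134). T>C odds with Uprt against none recovered 37.0% (11093). Among the unchanged loci each test made 0 to 7 calls. The changed loci were drawn at random from those above a low floor of reads, and most loci are rarer than Myh6 and Myh7. These rates are therefore averages over such loci and not the power for these 2 genes.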

Additional observations from a re-analysis of the deposited data

Results flagged for a closer look

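In 24 groups of values of 4 to 10 mice, the highest and lowest mouse were set against the others by Dixon's ratio, which chance exceeds in about 1 in 20 groups. Lmna +/+ Uprt replicate 7 had 3952 CPM of Myh6, against 2669.9 to 3209 CPM in the other mice of its group. Lmna F/F Uprt replicate 5 had a Myh6 T>C share of 1.79%, against 1.07% to 1.30% in the others. The same heart had 1.73 Myh6 conversions per 1000 covered T bases, against 1.05 to 1.21. Its Myh7 share of 10.3% and its Myh7 rate of 5.21 conversions per 1000 T lay within the range of its group.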

How the results depend on the processing

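No paired analysis was possible because the labels carry no replicate numbers, and those used here follow accession order. The alternative that sums all kept intervals of a window gave the same values, as each window holds 1. With library size alone, the median of all loci moved to 0.16 with Uprt and 0.18 without, and the Lmna differences without Uprt were -0.85 for Myh6 and -0.87 for Myh7, both called. T>C reads without Uprt rest on few reads, 32 to 354 for Myh7.

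The Lmna difference without Uprt lost its call with only mice without Uprt in the fit (Myh6 -0.99 and Myh7 -0.89, edgeR adjusted p = 0.286 and 0.323), and, added after seeing the data, with replicates 1 and 2 of Lmna F/F no Uprt omitted (-0.48 and -0.69). With 1 library left out it ran from -1.24 to -0.74 for Myh6 and from -1.18 to -0.75 for Myh7. The interaction of Myh7 gained a call with no low-count filter, at 0.75, where 85 loci were called higher and 260 lower. The rise in conversions per 1000 T in Lmna F/F hearts without those 2 replicates was 0.820 for Myh6 and 3.58 for Myh7, where the exact permutation p was 0.0714 and could be no smaller.

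Differences near 0 turned sign. The log2 ratio of all reads between Lmna genotypes was -0.19 with Uprt in females alone, and ran from -0.038 to 0.11 with 1 library left out. Without Uprt it was -0.056 without the same 2 replicates, and from -0.19 to 0.38 with 1 left out. The ratio of T>C reads was 0.25 in males and -0.41 in females alone, 0.094 by medians, and from -0.16 to 0.074 with 1 left out. Females against males, the ratio of all reads was -0.029 in Lmna F/F Uprt alone. Uprt against none was 0.054 for Myh6 without a sex term and -0.13 to 0.16 with 1 left out, and for Myh7 -0.027 with library size alone, -0.14 without the 2 replicates and -0.084 to 0.23 with 1 left out. T>C reads with Uprt were 0.040 for Myh6 with library size alone and -0.13 to 0.034 with 1 left out, and 0.21 for Myh7 in males alone. The Lmna difference in T>C odds with Uprt was -0.041 for Myh6 and -0.29 for Myh7 in females alone, 0.56 and 0.59 in males alone (edgeR adjusted p = 0.774 for both), and -0.082 to 0.17 for Myh7 with 1 left out. Without Uprt it was 0.014 for Myh6 with no sex term. The correlation in Lmna +/+ Uprt was -0.24 without its 2 farthest mice. The cause was not tested for any of these.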

Other observations

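The 3 overlapping Myh6 intervals differ by a few bases at 1 end, hold the same reads, and gave 0.865, 0.878 and 0.870 conversions per 1000 covered T bases over all libraries. The 2 Myh7 intervals gave 3.30 for the kept one and 3.07 for the shorter one inside it.

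On the plus strand of the 2 windows and between them, 13 kept intervals were listed, and 2 of them held nearly all reads. The interval chr14:55211335-55211806 had 36243 reads, 736 with a T>C conversion, and chr14:55228217-55229058 had 7578 reads, 503 with a conversion.

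The loci most alike to Myh6 and Myh7 over the 21 libraries had the following Lmna differences without Uprt on the log2 scale, from the same edgeR fit: -0.65 at chr17:71343269-71343518 (adjusted p = 0.0124), -0.86 at chr7:79744598-79744951 (adjusted p = 0.00857), -0.89 at chr12:84420631-84424067 (adjusted p = 0.00788) and -0.97 at chr7:19029720-19030085 (adjusted p = 0.0123). The likeness was computed over these same libraries, so these values are no separate evidence.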
